A study of Homo sapiens with 54 samples.

Results

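The RNAs described here are the 77 genes on the array whose symbol began with SNORA (61 genes) or SCARNA (16 genes), out of 18417 genes measured. A member had a row that carried exactly 1 gene symbol in the platform annotation, and where a symbol had several rows, the row with the highest mean was used; the 77 symbols held 83 such rows. A further 28 rows name a SNORA or SCARNA gene among several symbols and were left out, so SNORA73A, SNORA73B and SCARNA2 are not analysed here. The rule for members used no measured change, but it was set with earlier results of these data known. Reference lengths of the RNAs ran from 123 to 421 nucleotides.

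The RNA came from NCI-H460 cells, an established line of human large cell lung carcinoma, all taken from serum-free medium. Each of 54 arrays held 1 culture, and the arrays formed 18 groups of 3. A group joined a pretreatment (none, 5 uM nicotine, or cigarette smoke extract diluted to a nicotine equivalent of 5 uM) with a therapy given 2 h later (none, a single 6 Gy dose of ionizing radiation, or 1 uM cisplatin) and a harvest 2 h or 24 h after that. The untreated groups had neither agent and were harvested at the same times. The labels describe the 3 arrays of a group as biological replicates; all are cultures of 1 line, so the p-values cover the spread between cultures of that line.

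H/ACA RNAs are short, stable nuclear RNAs with a pair of hairpins. Each assembles with dyskerin (DKC1), NOP10, NHP2 and GAR1 and guides that enzyme complex to a uridine, which becomes pseudouridine; the SNORA RNAs act in the nucleolus, mostly on ribosomal RNA. The SCARNA RNAs, or scaRNAs, gather in Cajal bodies and guide modification of the small nuclear RNAs of the spliceosome. Some scaRNAs are of the H/ACA class, some are C/D RNAs, which guide methylation of the ribose and bind another set of proteins, and some join both structures in 1 molecule. In human cells most of these RNAs are not transcribed from a promoter of their own but are trimmed out of an intron of a longer host gene after splicing.

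Levels are given on a log2 scale inferred from the range of the deposited values, and a change is a difference of log2 group means with the standard error of the limma fit. A gene was called when its limma p-value, adjusted over all 18417 genes by the Benjamini-Hochberg method, was under 0.05. Mean levels of the members ran from 3.98 to 11.51, and 40 of the 77 lay above the median gene (7.04). Olfactory receptor, taste receptor and keratin-associated genes, which lung carcinoma cells are not known to use, served as a scale for the background: 44 members had a mean above the 95th percentile of their 453 genes (6.76). A fall to a level under that value may be cut short by the background, so its fold is a minimum at best. Probes differ in brightness, so levels of different genes are not set against each other.

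The 54 arrays correlated with others of their group between 0.979 and 0.996, and no pair of arrays was identical. Of 7 markers chosen for the line, 4 lay above the background scale, among them KRT8, KRT18 and VIM, while EPCAM and CDH1 did not; of 5 leukocyte, 5 fibroblast and 4 endothelial markers, 1, 3 and 0 did. The mean over the 77 RNAs ran from 7.17 to 7.61 on the 27 arrays of the 2 h harvest and from 7.23 to 7.50 on the 6 arrays of untreated or nicotine cells at 24 h. On the other 21 arrays at 24 h it ran from 6.77 to 7.28, so those arrays overlapped the rest only at the lower edge. The mean of the background genes ran from 4.66 to 5.06, from 4.84 to 5.09 and from 4.70 to 5.15 in the same 3 sets, and the mean of the ribosomal protein mRNAs from 10.48 to 10.59, from 10.38 to 10.57 and from 10.08 to 10.47. Among the untreated and nicotine arrays at 24 h, nicotine replicate 1 had the highest mean over the RNAs (7.50) and nicotine replicate 2 the lowest (7.23).

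**Figure D1:**
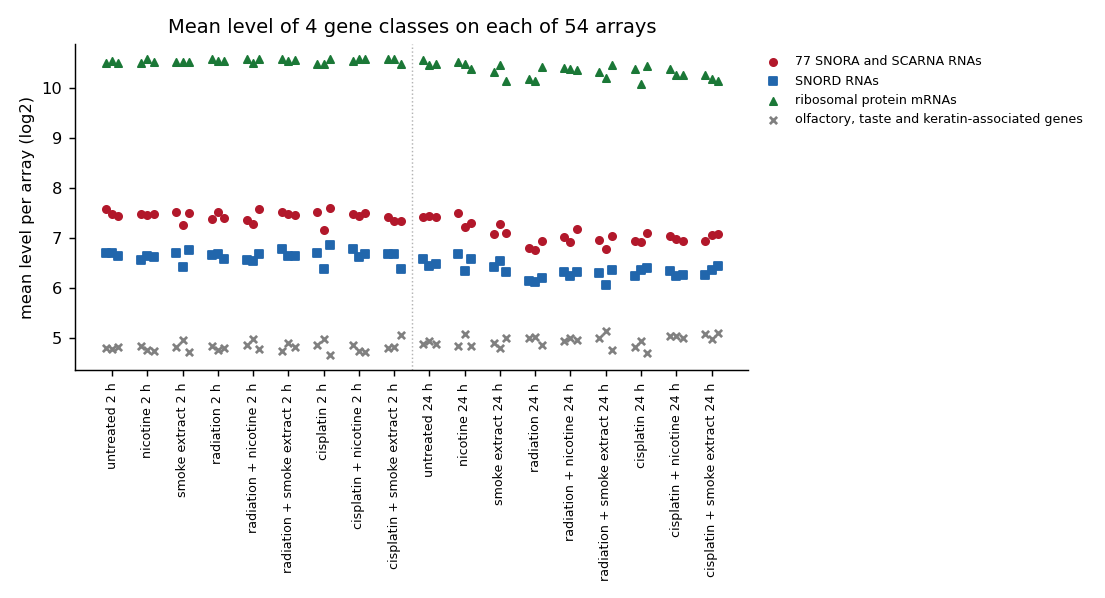
Mean log2 level on each of the 54 arrays (3 points a group, in the order of the replicate numbers) for the 77 SNORA and SCARNA RNAs, the SNORD RNAs, the ribosomal protein mRNAs and the olfactory, taste and keratin-associated genes. The mean over the 77 RNAs lies between 6.77 and 7.28 on the 21 arrays treated with radiation, cisplatin or smoke extract at 24 h, and between 7.17 and 7.61 at 2 h.

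Over the 18 groups, the limma F test called 60 of the 77 RNAs, against 60.1% of all genes. SNORA20 had the widest range of group means (2.58), followed by SNORA23 (2.40), SNORA65 (2.04) and SNORA3A (2.02), whose median SD within a group was 0.36, 0.24, 0.39 and 0.19. SCARNA4, SNORA74A, SNORA41, SNORA24, SNORA22 and SCARNA23 came next, with ranges from 1.79 down to 1.58. Among RNAs above the background scale, SNORA38 (0.33), SNORA51 (0.35), SNORA80A (0.44), SNORA80B (0.45) and SCARNA17 (0.52) had the narrowest ranges. The lowest of the 18 group means fell in irradiated cells at 24 h for 27 of the 77 RNAs and in cisplatin cells at 24 h for 11.

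At 2 h the RNAs had hardly moved. Radiation, cisplatin and nicotine alone each called 0 of the 77 against untreated cells, where 0.304%, 0.00543% and 0% of all genes were called; at an unadjusted limma p under 0.05 the counts were 3, 3 and 1. Smoke extract called 0 higher and 1 lower, where 1.74% and 2.04% of all genes were called (3.77% in either direction). That RNA was SNORA70F, at 4.53, 4.61 and 4.56 in untreated cells and 4.15, 4.06 and 4.18 after smoke extract, a change of -0.44 ± 0.13 (limma adjusted p = 0.0356, n = 3). Both sets lie under the background scale, and the call was lost when any 1 of the 6 arrays was left out. The median change of the 77 was -0.05 after radiation, -0.07 after cisplatin, -0.07 after smoke extract and -0.03 after nicotine.

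By 24 h after radiation, RNAs of both classes had fallen; in RNA from whole cultures, a fall in all cells and the loss of some cells cannot be told apart. Of the 77, 44 were called lower, where 11% of all genes were, and 0 higher, where 10% were; the median change was -0.58, against 0.03 over all genes. SNORA RNAs made up 34 of the 44 (of 61 measured) and scaRNAs 10 (of 16). Among the 40 RNAs above the median gene, 31 were called lower and the median was -0.75; among the 37 others it was 13 and -0.27.

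SNORA20, assigned to the 18S ribosomal RNA, showed the largest fall. It was at 8.13, 8.34 and 7.99 in untreated cells at 24 h and at 5.47, 4.95 and 6.69 after radiation. The groups stood apart by more than 1 log2 unit, and the irradiated arrays ended under the background scale. The change was -2.45 ± 0.32, or 5.46-fold lower (limma adjusted p = 8.89e-08). In cells harvested 2 h after radiation SNORA20 had been at 7.99, 8.45 and 7.79, against 8.42, 8.23 and 8.05 untreated, so those arrays overlapped.

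SNORA23, a guide for the 28S ribosomal RNA and 1 of the brighter probes, went from 10.90, 11.34 and 11.06 in untreated cells to 8.87, 8.62 and 9.40 after radiation. Its 3 irradiated arrays all lay well above the background scale, so the fall of 2.14 ± 0.24 (4.40-fold, adjusted p = 3.02e-09, limma) was measured on both sides. SNORA3A, from the ribosomal protein gene RPL27A, went from 11.79, 12.04 and 12.02 to 9.97, 9.56 and 10.26, a change of -2.02 ± 0.22 (4.05-fold lower, limma adjusted p = 1.56e-09). In neither RNA did an irradiated array reach the lowest untreated one, which the rule for naming them required.

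Of the other RNAs named for size, SNORA74A, known as U19, fell from 8.52, 8.76 and 8.69 to 7.27, 6.86 and 7.26. SNORA22 fell by 1.40 ± 0.22, SNORA24 by 1.35 ± 0.20 and SNORA13 by 1.31 ± 0.18, the last 2 being guides for the 18S ribosomal RNA. All 3 arrays of each group stood apart in these RNAs, which the rule for naming them by size also required. The irradiated mean of SNORA13 was 5.73, under the background scale, while those of SNORA22 and SNORA24 were 9.45 and 8.56. The largest scaRNA falls were in SCARNA6 (-1.40 ± 0.24), SCARNA4 (-1.23 ± 0.26) and SCARNA10 (-1.22 ± 0.27). SCARNA10 had 1 irradiated array at 7.92 and the other two at 6.55 and 6.71, with untreated arrays at 8.29, 8.39 and 8.17.

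**Figure D2:**
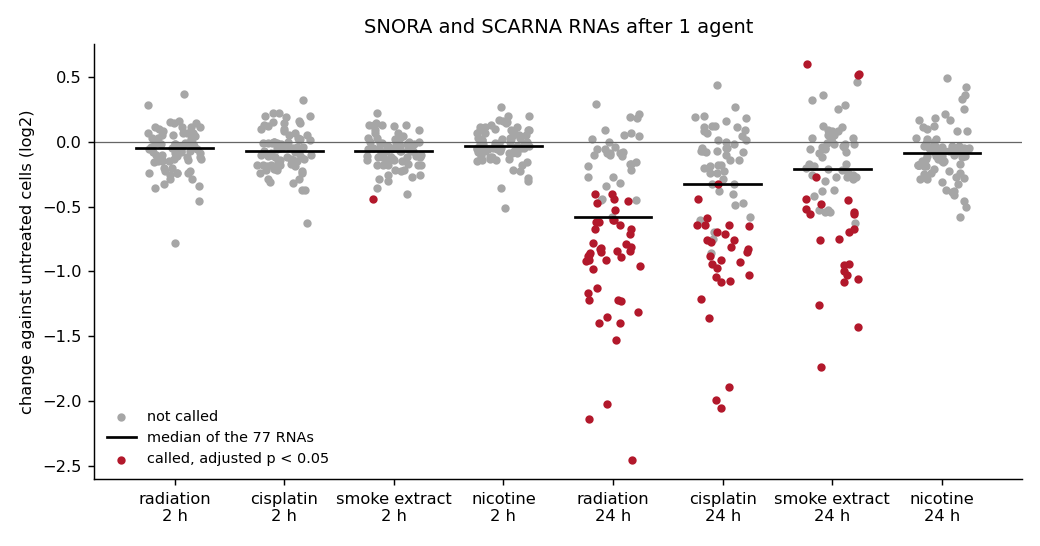
Change of each of the 77 RNAs against untreated cells (log2, 1 point per RNA) after a single agent at 2 h and at 24 h; red points passed limma's adjusted p of 0.05 and black lines are medians. Falls appear only in the 24 h columns of radiation (44 RNAs), cisplatin (29) and smoke extract (21), apart from SNORA70F at 2 h after smoke extract.

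After cisplatin for 24 h, 29 of the 77 were called lower, where 1.65% of all genes were, and 0 higher, where 2.15% were. The median change was -0.33, against -0.02 over all genes. SNORA23 was at 8.84, 9.21 and 9.11, more than 1.5 log2 units under its lowest untreated array, a change of -2.05 ± 0.24 (4.13-fold lower, limma adjusted p = 4.08e-07). SNORA20 was at 6.01, 5.88 and 6.62 (-1.99 ± 0.32) and SNORA3A at 9.87, 10.13 and 10.16 (-1.89 ± 0.22). SNORA22, SCARNA6, SNORA24, SNORA68, SNORA41, SNORA49 and SNORA7B followed, with changes from -1.36 to -0.97 and no array overlapping the untreated ones. That separation was part of the rule by which they were named. SNORA49 was at 8.00, 7.92 and 8.00 untreated and at 6.93, 6.84 and 7.06 after cisplatin. Leaving out 1 array at a time gave 21 to 25 calls.

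After smoke extract for 24 h, 21 of the 77 were called lower and 3 higher, where 7.4% and 8.67% of all genes were. SNORA20 was at 5.90, 7.03 and 6.30, a change of -1.74 ± 0.32 (3.35-fold lower, limma adjusted p = 1.01e-04). SCARNA10, a scaRNA that joins C/D and H/ACA structures and acts on the U5 spliceosomal RNA, was at 6.65, 7.16 and 6.76, all under its untreated arrays by 1 log2 unit or more (-1.43 ± 0.27, adjusted p = 1.63e-04, limma). SNORA23 (-1.26 ± 0.24), SNORA22 (-1.08 ± 0.22), SNORA3A (-1.06 ± 0.22), SNORA52 (-1.03 ± 0.17) and SNORA24 (1.99-fold lower) fell as well. SCARNA6, SNORA41 and SNORA7B changed by -0.95, -0.94 and -0.76. Smoke extract replicate 2 was the highest of its 3 arrays in SNORA20, SNORA23, SNORA3A, SCARNA6 and SCARNA10. Without replicate 1 of that group 13 RNAs were called in all. Averaged over cells with no therapy, radiation and cisplatin, the smoke extract effect was called in 11, of which 8 were lower, 6 of them among the 21. The share of all genes called in that average is not given here. SNORA23, SNORA22, SNORA3A, SCARNA6, SNORA41 and SNORA7B were not called in that average.

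The 3 RNAs that rose after smoke extract were SNORA5A, SNORA29 and SNORA70G. SNORA5A was at 8.49, 8.13 and 8.11 in untreated cells and at 8.74, 9.01 and 8.51 after smoke extract; the lowest treated array lay just above the highest untreated one (0.51 ± 0.14, limma adjusted p = 0.00778). SNORA29 rose by 0.52 ± 0.16 and SNORA70G by 0.60 ± 0.21, both from levels under the background scale.

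Nicotine alone called 0 of the 77 at 24 h by limma, where 0.00543% of all genes were called; the median change was -0.09 and changes ran from -0.58 to 0.49. Its 3 arrays were spread: SNORA20 was at 8.43, 7.45 and 6.86 and SNORA23 at 11.32, 10.61 and 10.27, with replicate 1 among or above the untreated arrays and replicates 2 and 3 below all of them. Of all 18417 genes, 542 (2.94%) were lower after smoke extract than after nicotine and 1807 were higher. Among the 77 RNAs, tested directly, smoke extract lay below nicotine in 11 and above it in 0. SCARNA10 (-1.10 ± 0.27, adjusted p = 0.0041), SNORA52 (-0.75 ± 0.17, adjusted p = 0.00172) and SNORA41 (-0.70 ± 0.20, adjusted p = 0.015) were the limma calls among them whose arrays did not overlap. Without nicotine replicate 1 the count was 1 and without replicate 3 it was 20.

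**Figure D3:**
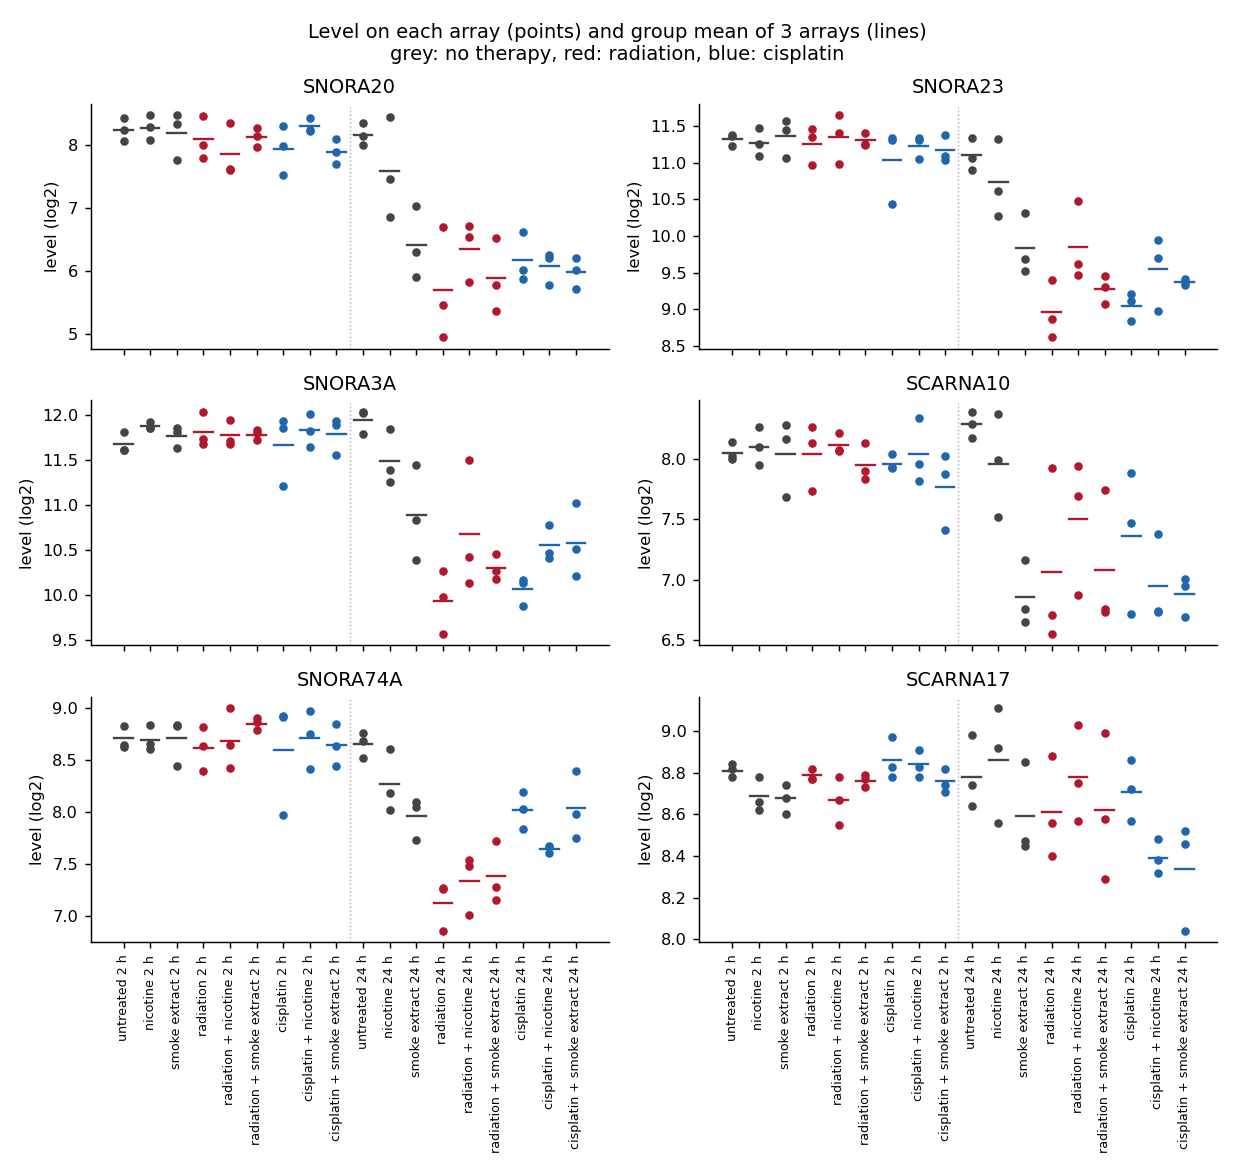
Log2 level of 6 RNAs on every array (points) with the mean of each group of 3 (lines), ordered by harvest time, therapy and pretreatment; grey marks no therapy, red radiation and blue cisplatin. SNORA20, SNORA23, SNORA3A and SCARNA10 are level over the 2 h groups and lower in all treated groups at 24 h except nicotine alone, whose arrays are spread; SNORA74A is lowest after radiation, and SCARNA17 covers a range of group means of only 0.52.

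The effect of time was tested in the same fit. In untreated cells the 24 h level differed from the 2 h level in 0 of the 77 RNAs by limma, where 1.92% of all genes were called; 7 had an unadjusted p under 0.05. A limma fit of those arrays alone called 19, and the share of all genes called in that fit is not given here. The radiation effect at 24 h was below that at 2 h in 30 RNAs, where 6.94% of all genes were. SNORA20 gave the largest such difference (-2.29 ± 0.45), then SNORA3A (-2.16 ± 0.31) and SNORA23 (-2.07 ± 0.34). For cisplatin the difference was called in 3 RNAs, where 0.0597% of all genes were lower: SNORA3A (-1.88 ± 0.31), SNORA23 (-1.76 ± 0.34) and SNORA49 (-1.02 ± 0.21). Cisplatin replicate 2 at 2 h was low in many of the RNAs (a mean of 7.17 over the 77, against 7.53 and 7.61), and without it 9 were called, while without untreated replicate 2 at 2 h 1 was. For smoke extract 6 differences were lower and 1 higher (SNORA5A), where 1.64% and 4.65% of all genes were. Without replicate 1 of the 24 h smoke extract arrays 1 was called, and without replicate 2, 11. A fit of only the groups compared called 20, and its share of all genes is not given here either.

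Radiation and cisplatin were also compared with each other. At 24 h, 7 RNAs were lower after radiation than after cisplatin and 0 higher. Of all 18417 genes, 1456 (7.91%) were lower and 947 higher, so the share of RNAs called lower was close to that of all genes. SNORA74A was the clearest: its arrays were at 7.27, 6.86 and 7.26 after radiation and at 8.03, 7.84 and 8.20 after cisplatin, a difference of -0.89 ± 0.19 (limma adjusted p = 6.43e-04). SNORA75, whose host gene encodes nucleolin, was at 8.18, 8.06 and 8.48 against 8.79, 8.86 and 9.03 (-0.65 ± 0.18). SNORA69 (-0.81 ± 0.22), SNORA29 (-0.53 ± 0.16), SNORA55 (-0.39 ± 0.10) and SNORA5C (-0.26 ± 0.09) also had arrays that did not overlap. Such separation was a condition for naming these RNAs. Both groups of SNORA69 (means of 3.66 after radiation and 4.47 after cisplatin) and of SNORA29 (5.8 and 6.34) lay under the background scale. The call of SNORA5C was lost under 11 alternatives, among them quantile normalization and eBayes without trend, and that of SNORA29 under 6. The calls of SNORA69, SNORA75 and SNORA55 were each lost under 2. SNORA23, SNORA20 and SNORA3A were not among the 7. Leaving out 1 array at a time gave 2 calls (without cisplatin replicate 3) to 9 calls.

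The calls of the scaRNAs are given here by structure. SCARNA5, SCARNA6, SCARNA10 and SCARNA12, the 4 that join C/D and H/ACA elements and act on U5, were called lower after radiation, cisplatin and smoke extract alike, with medians of -1.06, -0.94 and -0.76. SCARNA12, the brightest of them, was at 10.76, 10.69 and 10.64 in untreated cells, 9.82, 9.57 and 10.02 after radiation, 9.85, 9.42 and 10.00 after cisplatin and 10.13, 10.38 and 9.89 after smoke extract. Of the 8 scaRNAs with H/ACA elements alone, which include the U2 guides SCARNA1, SCARNA4 and SCARNA8, 6 were called lower after radiation, 4 after cisplatin and 3 after smoke extract. Their other two after radiation, SCARNA11 and SCARNA14, had mean levels of 5.77 and 3.98, under the background scale, but so did the called SCARNA1 (5.11), SCARNA4 (6.52), SCARNA8 (6.07) and SCARNA23 (4.07).

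None of the 3 C/D scaRNAs, SCARNA7, SCARNA9 and SCARNA17, was called in any of those comparisons. Their changes ran from -0.20 to 0.32, although all 3 had mean levels over 8 and so lay clear of the background. SCARNA17, a C/D RNA reported to have a promoter of its own, was at 8.98, 8.64 and 8.74 untreated, 8.56, 8.40 and 8.88 after radiation, 8.72, 8.57 and 8.86 after cisplatin and 8.45, 8.85 and 8.47 after smoke extract. Those groups overlap throughout. In nicotine cells at 24 h, cisplatin changed SCARNA17 by -0.47 ± 0.13 and SCARNA7 by -0.42 ± 0.22, with arrays that did not overlap. SCARNA9 changed there by -0.08 ± 0.22 with overlapping arrays, and none of the 3 C/D scaRNAs was called. The 3 are also long: they measure 330, 353 and 421 nucleotides, against 266 to 330 for the 4 mixed RNAs, and length and class cannot be told apart in so few. The comparisons with untreated cells in this and the preceding paragraph share the untreated arrays, and the difference between classes was not tested.

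**Figure D4:**
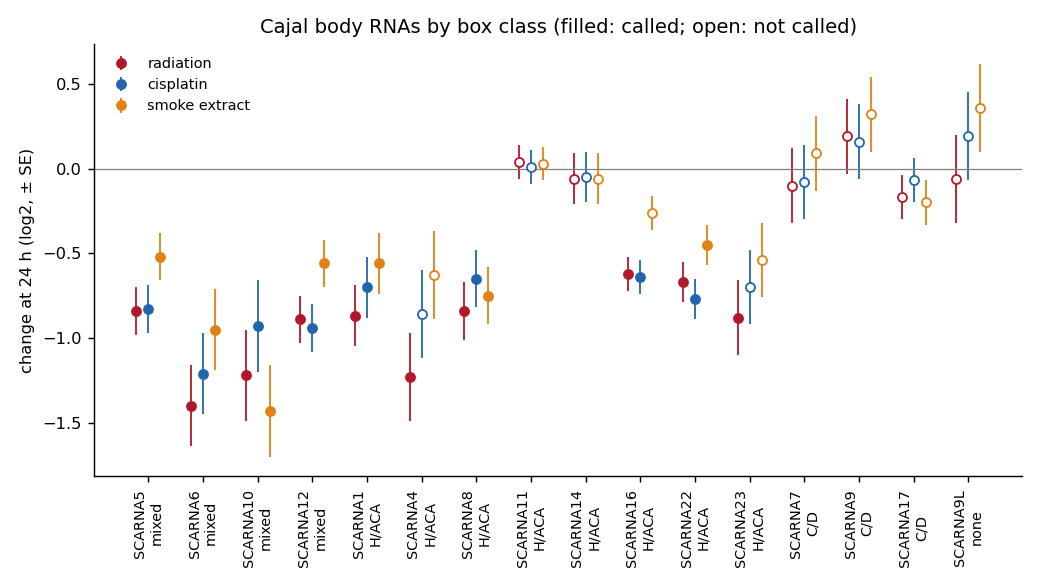
Change of the 16 scaRNAs at 24 h (log2, bars are ± 1 SE of the limma fit) after radiation, cisplatin and smoke extract, grouped by box class; filled points passed an adjusted p of 0.05 and "none" marks SCARNA9L, which was not assigned a class. The 4 mixed RNAs are filled in all 3 comparisons and the 3 C/D RNAs in none.

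The median change did not follow the order of length among the RNAs as a whole. After radiation the median was -0.53 for the 12 RNAs of up to 130 nucleotides, -0.53 for the 51 of 131 to 149, -0.74 for the 6 of 154 to 236 and -0.51 for the 8 of 266 or more. After cisplatin the 4 medians were -0.30, -0.33, -0.64 and -0.45, and after smoke extract -0.34, -0.17, -0.41 and -0.36. From short to long, 7, 28, 5 and 4 RNAs were called lower after radiation. After cisplatin it was 2, 19, 4 and 4, and after smoke extract 3, 11, 3 and 4. After these last agents the classes from 154 nucleotides up were called in larger shares than the shorter classes. These are descriptions, with no test.

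Pretreated cells gave comparisons that share no array with radiation alone or cisplatin alone. Of all 18417 genes, radiation in nicotine cells at 24 h called 1227 (6.66%) lower and 1583 higher. Of the 77 RNAs it called 25 lower and 0 higher. Of these, 24 were also lower after radiation alone, which is 96% of the 25 and 54.5% of the 44. Over the 77 RNAs the changes in the 2 comparisons had a correlation of 0.83, and over all genes 0.81; members of 1 library share its noise, so this is a description. SNORA20 changed by -1.22 ± 0.32, SNORA74A by -0.93 ± 0.19 and SNORA23 by -0.88 ± 0.24, with 1 or more arrays overlapping in SNORA23. The nicotine arrays carry the spread described above: without nicotine replicate 1 the count was 7, and the highest count on leaving out 1 array was 27.

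Cisplatin in nicotine cells called 10 lower and 0 higher at 24 h, where 52 (0.282%) of 18417 genes were lower and 31 higher. All 10 were also lower after cisplatin alone (34.5% of the 29): SNORA20 (-1.50 ± 0.32), SNORA23 (-1.19 ± 0.24), SCARNA6, SNORA24, SNORA41, SNORA68, SNORA3A, SNORA22, SCARNA5 and SCARNA12. Without nicotine replicate 1 the count was 0, and without nicotine replicate 3 it was 26. Leaving out that replicate 1 removed the array whose RNAs were highest.

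In smoke extract cells, radiation called 8 lower and 0 higher, where 1834 (9.96%) of 18417 genes were lower and 777 higher. The share of the RNAs called lower was near that of all genes. The 8 were SNORA29, SNORA13, SNORA75, SNORA27, SNORA10, SNORA74A, SNORA6 and SNORA3B, with changes from -0.74 to -0.51. Without smoke extract replicate 2 the count was 3 and without replicate 3 of the combination 14. SNORA20, SNORA23 and SNORA3A, already low after smoke extract alone, were not called. Their levels were 5.78, 5.36 and 6.52 for SNORA20 and 9.31, 9.07 and 9.46 for SNORA23 after both agents, against 5.47, 4.95 and 6.69 and 8.87, 8.62 and 9.40 after radiation alone; these arrays overlapped. Cisplatin in smoke extract cells called 0 of the 77 by limma, where 0.0814% of all genes were called; 8 had an unadjusted p under 0.05. Adding smoke extract to radiation likewise called 0, where 8.23% of all genes were called, with 9 at an unadjusted p under 0.05.

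The interaction of smoke extract with radiation at 24 h was positive in 11 RNAs and negative in 0. Of all 18417 genes, 135 (0.733%) were positive and 339 negative. In the 11 RNAs, the level after both agents lay above the sum of their separate changes on the log2 scale. SNORA20 gave 1.92 ± 0.45 (limma adjusted p = 0.0111), SNORA23 1.57 ± 0.34 and SCARNA10 1.45 ± 0.38. SNORA3A, SCARNA6, SNORA22, SNORA52, SNORA74A, SCARNA12, SCARNA16 and SNORA5C made up the rest. The group means of SNORA20 after smoke extract, radiation and both lay under the background scale, where a further fall could not be read; those of SNORA23 and SNORA3A did not. Without smoke extract replicate 1, 4 RNAs were called. With cisplatin, the interaction was positive in SNORA3A (1.58 ± 0.31), SNORA23 (1.59 ± 0.34) and SCARNA5 (0.87 ± 0.19) and negative in 0. Of all 18417 genes, 13 (0.0706%) were positive and 15 negative. Without untreated replicate 1, 0 of the RNAs were called, and without replicate 2 of the combination 8.

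When a pretreatment was added to cisplatin, the shares of the RNAs called were near or below those of all genes. Smoke extract gave 7 higher and 3 lower at 24 h, where 14.6% and 14.1% of all genes were, and nicotine 7 higher and 3 lower, where 8.25% and 9.56% were. Both comparisons use the same cisplatin arrays. Of all genes at 24 h, nicotine called 1 when given alone, 1 in irradiated cells and 3280 in cisplatin cells. SNORA38B was higher by 0.89 ± 0.26 with smoke extract and 1.01 ± 0.26 with nicotine, and SNORA71D by 0.37 ± 0.10 and 0.46 ± 0.10. SNORA16B was called lower with both, by 2.21-fold and 2.23-fold, from a cisplatin mean of 5.47, under the background scale. Without cisplatin replicate 3 the counts in all were 4 and 1, and without replicate 2 they were 12 and 13.

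The proteins that bind these RNAs were read from the same arrays. NOP10, the small core protein that docks on dyskerin, fell after each of the 3 agents at 24 h. It was at 10.16, 10.16 and 10.20 in untreated cells, 8.80, 8.70 and 8.95 after radiation (-1.36 ± 0.15, limma adjusted p = 8.97e-10), 9.26, 8.80 and 9.26 after cisplatin (-1.07 ± 0.15) and 9.44, 9.54 and 8.83 after smoke extract (-0.90 ± 0.15). No treated array reached the untreated ones. DKC1, the pseudouridine synthase, fell by 0.50 ± 0.09 and NHP2 by 0.43 ± 0.10 after radiation, but neither was called after cisplatin or smoke extract, where DKC1 changed by 0.06 and 0.11. GAR1 changed by 0.08, 0.06 and 0.18 and was not called.

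Telomerase RNA, TERC, also carries an H/ACA end and binds the same 4 proteins, but is transcribed from a promoter of its own. It was at 8.71, 8.70 and 8.69 untreated, 9.13, 9.07 and 8.55 after radiation, 8.44, 8.83 and 8.37 after cisplatin and 9.13, 9.69 and 9.06 after smoke extract. The rise after smoke extract was called (0.60 ± 0.17, limma adjusted p = 0.0102); the changes of 0.22 after radiation and -0.15 after cisplatin were not, and TERT, the reverse transcriptase, was not called after any of them.

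Of the assembly factors, RUVBL1 and RUVBL2 fell after radiation (-0.41 and -0.50) and after smoke extract (-0.52 and -0.31), and NAF1, SHQ1 and PIH1D1 were not called. Of 15 measured Cajal body and SMN complex genes, 4 fell after radiation (GEMIN4 by 0.50, NOLC1 by 0.47, GEMIN6 by 0.45 and GEMIN7 by 0.39), 0 after cisplatin and 1 after smoke extract (GEMIN7), while COIL, which encodes the scaffold protein coilin, rose by 0.30 after smoke extract, as did GEMIN5 by 0.32. Of 15 genes that trim small RNAs or open intron lariats, 8 fell after radiation, led by the exosome subunits EXOSC8 (-0.93 ± 0.13) and EXOSC9 (-0.57 ± 0.09), against 1 after cisplatin (EXOSC4, -0.40) and 0 after smoke extract. Background shares for these lists are those given above for each comparison.

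Some other small RNAs were called lower on the same arrays. Of all genes, 11% were called lower after radiation, 1.65% after cisplatin and 7.4% after smoke extract. Of 115 SNORD genes, which hold the C/D guides of the nucleolus, 38 were called lower after radiation (median -0.28), 25 after cisplatin (-0.08) and 12 after smoke extract (-0.02). Of 15 RNU genes, the spliceosomal and related RNAs, it was 8, 7 and 6, and of 3 vault RNAs, which RNA polymerase III transcribes, 3, 2 and 3. Ribosomal protein mRNAs gave 31, 12 and 21 of 66, with medians of -0.24, -0.20 and -0.20. The 453 background genes gave 1, 1 and 2. The share of SNORD genes called after smoke extract was close to that of all genes. Whether the SNORA and SCARNA RNAs as a class fell more than these other sets was not tested.

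Each of the 77 RNAs lies inside the span of another gene in the reference list, and for 64 that gene had a row of its own on the array. The shortest spanning gene with a row was taken as the host, so it need not be the gene the RNA is made from. SCARNA16 and SNORA74A were assigned to SEC14L1 and MATR3, although SNHG20 and SNHG4 also span them. Strand was not given for the members, so an antisense neighbour could be among the hosts. The 64 RNAs had 54 hosts, 8 of which spanned more than 1 of the RNAs. After radiation 11 hosts were called lower and 4 higher, where 11% and 10% of all genes were. After cisplatin it was 0 and 2, where 1.65% and 2.15% were, and after smoke extract 6 and 11, where 7.4% and 8.67% were.

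The change of each small RNA was also compared with that of its host. The difference between the 2 changes was tested with limma on the array-wise difference of the rows and adjusted over the 64 pairs. The small RNA was called below its host in 32 pairs after radiation, 35 after cisplatin and 25 after smoke extract, and above it in 2, 1 and 3. No share for other pairs of genes is given here. The calls of single RNAs and hosts were adjusted over all genes, so their counts are not set against these. Among RNAs with a measured host, 25 were called lower after cisplatin, and for all 25 the host was not called. Since 0 of the 54 hosts were called lower after cisplatin, no RNA could have a host called lower there. After radiation 35 such RNAs were called lower, and the host was lower in 11, higher in 2 and not called in 22.

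SNORA23 lies in IPO7, which encodes an importin. IPO7 was at 10.77, 10.73 and 10.57 in untreated cells, 10.58, 10.53 and 10.92 after radiation, 10.87, 10.80 and 10.96 after cisplatin and 10.75, 10.70 and 10.54 after smoke extract, overlapping throughout apart from cisplatin, where the change of 0.19 was not called. SNORA23 fell below its host by 2.13 ± 0.27, 2.23 ± 0.27 and 1.24 ± 0.27 in the 3 comparisons. SNORA20 and SNORA29 both lie in TCP1, a subunit of the cytosolic chaperonin. TCP1 changed by -0.24 ± 0.06 after radiation, 0.05 ± 0.06 after cisplatin and 0.19 ± 0.06 after smoke extract; SNORA20 lay below it by 2.21, 2.04 and 1.93. SNORA29, from the same gene, lay above it by 0.39 ± 0.16 after cisplatin (limma adjusted p = 0.0405), so the 2 RNAs lay on opposite sides of TCP1. The change of SNORA29 itself (0.44 ± 0.16) was not called. Its means of 5.89 untreated and 6.34 after cisplatin both lay under the background scale.

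RPL27A, the host of SNORA3A and SNORA3B, changed by -0.19 ± 0.09 after radiation and was not called. SNORA3A lay below it by 1.83 ± 0.24 and SNORA3B by 0.48 ± 0.17; after cisplatin SNORA3A lay below it by 1.78 and the difference for SNORA3B was -0.08 ± 0.17, which was not called. ATG16L1, an autophagy gene that spans SCARNA5 and SCARNA6, changed by 0.01 ± 0.10 after radiation, when the 2 RNAs lay below it by 0.85 and 1.41. SNORA13 fell although its host EPB41L4A-AS1, a noncoding RNA, rose by 0.25 ± 0.09 after radiation (difference -1.56 ± 0.18).

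For the hosts SNHG17, EEF1B2 and NCL, host and small RNA both moved. SNHG17, a noncoding host, fell by 0.54 ± 0.09 after radiation, when its RNAs SNORA71A, SNORA71C and SNORA71D changed by -0.91, -0.78 and -0.60 and none of the differences from it was called. EEF1B2 fell by 0.66 ± 0.18 after radiation and by 0.92 ± 0.18 after smoke extract, when SNORA41 changed by -0.85 and -0.94. NCL, the nucleolin gene, fell by 0.37 ± 0.07 after radiation and SNORA75 by 0.75 ± 0.19 more. TBRG4 spans SNORA5A, SNORA5B and SNORA5C: after smoke extract SNORA5A lay above it by 0.34 ± 0.14 and SNORA5C below it by 0.44 ± 0.12.

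**Figure D5:**
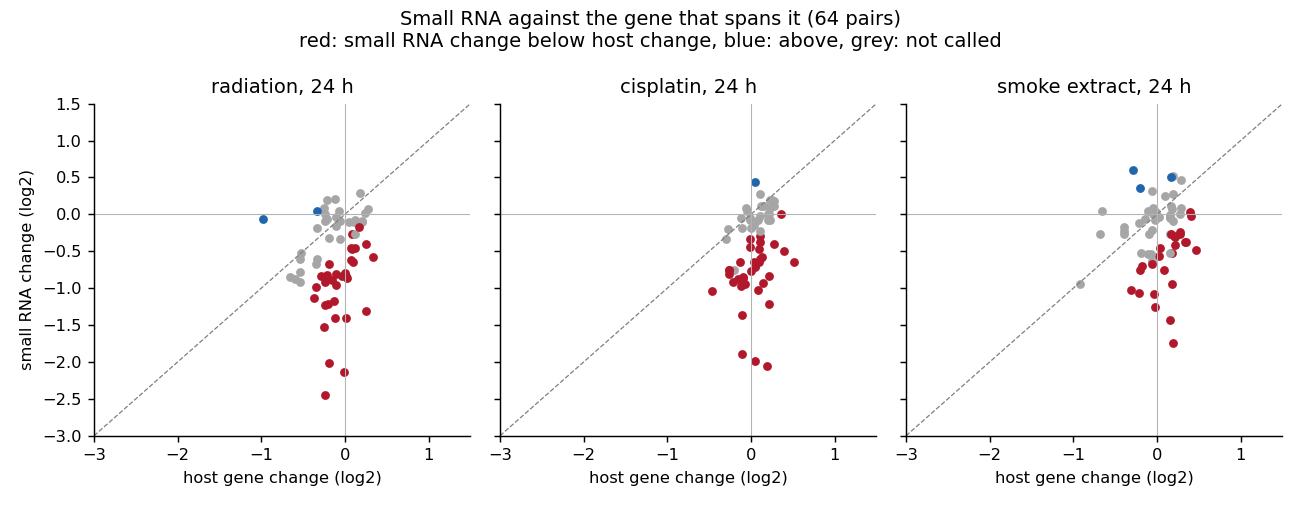
Change of the small RNA (vertical, log2) against change of the gene that spans it (horizontal, log2) for 64 pairs after radiation, cisplatin and smoke extract at 24 h; the dashed line marks equal change. Red pairs, with the small RNA below its host by the limma test, number 32, 35 and 25, and blue pairs, above it, 2, 1 and 3.

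Where such an RNA is made with its host, the host promoter is where its transcription begins. Many hosts of small nucleolar RNAs belong to the 5′TOP genes, in which transcription starts in a run of C and T and whose mRNAs are translated according to growth signals. RefSeq promoters (GRCh38.p14, 250 bases before to 50 after the annotated start) were found for 45 of the 54 hosts. A run of 6 or more C or T, on the gene's strand, that covered the first transcribed base was present in 13 of these (28.9%), against 7.51% of 27305 promoters of the same length in the table. The 4 below are shown because their RNAs were described above; they run from 60 bases before the start to 10 bases from it, with that run in capitals. TCP1 has none.

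IPO7 (host of SNORA23), chr11:9384592-9384661, plus strand: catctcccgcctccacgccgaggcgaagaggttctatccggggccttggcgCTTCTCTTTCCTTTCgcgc
RPL27A (host of SNORA3A and SNORA3B), chr11:8682732-8682801, plus strand: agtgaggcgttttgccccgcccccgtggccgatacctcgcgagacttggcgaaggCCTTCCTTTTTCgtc
NCAPD2 (host of SCARNA10), chr12:6494042-6494111, plus strand: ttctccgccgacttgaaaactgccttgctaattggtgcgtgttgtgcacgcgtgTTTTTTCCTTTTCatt
TCP1 (host of SNORA20 and SNORA29), chr6:159789593-159789662, minus strand: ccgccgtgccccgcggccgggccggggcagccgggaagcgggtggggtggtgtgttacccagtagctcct

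The run measures 15 bases in IPO7, 12 in RPL27A and 13 in NCAPD2, the gene of a condensin subunit. The 14 RNAs whose host had such a run changed by a median of -0.86 after radiation, -0.70 after cisplatin and -0.55 after smoke extract. For the 40 whose host promoter had none the medians were -0.37, -0.28 and -0.20, and the ranges of both sets overlap: after radiation they ran from -2.14 to 0.07 with the run and from -2.45 to 0.29 without it. These are descriptions with no test, and SNORA20, with the largest fall, is in the set without the run.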

How the data were processed

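The deposited table of 54 arrays (33297 rows) was taken without further normalization. The authors' deposited values are log2 by inference: they lie between 0.89 and 13.81, and no label states the base. Affymetrix Power Tools 1.15.0 is named in the submitters' processing notes, and how probes were summarized and normalized is not given in the sources used here. Sample columns left unused numbered 0.

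A gene was the highest-mean row among rows with 1 symbol (18417 genes). One linear model with 18 group means, taken from the sample titles, was fitted with limma 3.58.1 (R 4.3.3, with package data.table, version 1.17.8): 36 residual degrees of freedom, eBayes with trend, two-sided p, Benjamini-Hochberg adjustment over all genes, 49 contrasts. The fit was tested on simulated data. The number of arrays limits the precision.

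Named RNAs were up to 10 called RNAs with the largest change and arrays that did not overlap in each single-agent, radiation against cisplatin and smoke extract against nicotine comparison, the 10 widest and 5 narrowest ranges, SCARNA17, and genes of fixed lists; others were named after their values were seen. Members and lists were chosen with earlier results of these data known. Host spans came from RefSeq, GRCh38.p14.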

Additional observations from a re-analysis of the deposited data

Results flagged for a closer look

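The effect of an agent differed between conditions, by the limma test of the difference itself, in 5 comparisons. The radiation effect at 24 h was below that at 2 h in 30 of the 77 RNAs, where 6.94% of all genes were, and the cisplatin effect in 3, where 0.0597% were. For smoke extract 7 differed, 6 lower and 1 higher, where 1.64% and 4.65% of all genes did; leaving out 1 array gave 1 to 11. Smoke extract and radiation at 24 h lay above the sum of their log2 changes in 11 RNAs, where 0.733% of all genes did, and smoke extract and cisplatin in 3, where 0.0706% did; leaving out 1 array gave 4 to 16 and 0 to 8.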

How the results depend on the processing

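The counts below are of the 77 RNAs called, and the shares of all genes called under the alternatives are not given. Radiation at 24 h (44), cisplatin at 24 h (29) and the radiation effect over time (30) stayed within 1.5 times under every alternative tried, and so did smoke extract at 24 h (24) except where noted. No named RNA reversed in any alternative; 579 values kept their call and 44 lost it. With all rows of the value table tested, smoke extract at 2 h gave 0, smoke extract in cisplatin cells 6 and the smoke extract by radiation interaction 7. Fitting only the groups compared gave 3 for radiation and 1 for nicotine at 2 h, 13 for radiation in nicotine cells, 6 for smoke extract in cisplatin cells, 6 for smoke extract against nicotine, 19 for untreated cells over time, 6 for cisplatin and 20 for smoke extract over time, and 6 and 1 for the interactions with radiation and cisplatin. Quantile normalization gave 1 for smoke extract in irradiated cells and 6 for the cisplatin interaction, and eBayes without trend gave 1 for the latter. With the background-gene mean as covariate, the counts were 2 for smoke extract in irradiated cells, 2 for nicotine in cisplatin cells, 1 for untreated cells over time, 16 and 15 for cisplatin and smoke extract over time, and 21 and 17 for the interactions. With genes above the median only, they were 0 for smoke extract at 2 h, 5 for radiation and 1 for smoke extract in the combined cells, 4 for radiation against cisplatin and 6 for the cisplatin interaction. Without 18 arrays far from their group in the background-gene mean, smoke extract at 2 h gave 0, radiation in smoke extract cells 1, cisplatin in nicotine cells 35, smoke extract in irradiated cells 2, nicotine in cisplatin cells 4, untreated cells over time 3, cisplatin over time 0 and the cisplatin interaction 5. The mean over the 3 arms gave 11 for smoke extract and 1 for nicotine at 24 h. The cause was not tested.

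Leaving out 1 array at a time gave 38 to 44 for radiation, 21 to 25 for cisplatin and 13 to 25 for smoke extract at 24 h, and 0 to 0 for nicotine at 24 h, for all 4 agents at 2 h, for untreated cells over time and for cisplatin in smoke extract cells. Over time it gave 25 to 32 for radiation, 1 to 9 for cisplatin and 1 to 11 for smoke extract. It gave 7 to 27 and 0 to 26 for radiation and cisplatin in nicotine cells, 3 to 14 for radiation in smoke extract cells, 0 to 3 for smoke extract in irradiated cells, 4 to 12 and 1 to 13 for smoke extract and nicotine in cisplatin cells, 2 to 9 for radiation against cisplatin, 1 to 20 for smoke extract against nicotine, and 4 to 16 and 0 to 8 for the interactions.

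The deviations of same-numbered arrays correlated between -0.39 and 0.38, and every pair was over 0.1 in 1 comparison, nicotine at 24 h, where a replicate block called 0 as without it. In the other comparisons the numbers were not taken to pair samples. A replicate block gave 44, 30 and 24 for radiation, cisplatin and smoke extract at 24 h and 6 for the cisplatin interaction. The plate of each culture is not given, and RNAs under the background scale have little range in which to fall.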
